A study of Mus musculus with 7 samples.

Results

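Immune checkpoints are receptor and ligand pairs that restrain T cells, and αPD-L1 antibody blocks 1 of these ligands. The 10 mouse genes described here were chosen by name, as the PD-1 receptor (Pdcd1) with its ligands (Cd274, which encodes PD-L1, and Pdcd1lg2, which encodes PD-L2) and further checkpoint receptors and ligands (Ctla4 with Cd80 and Cd86, Havcr2 with Lgals9, Lag3 and Tigit). All 10 were found among the 53465 genes of the deposited table. Bulk RNA-seq covered 7 libraries, 3 of EMT6-P tumors, 3 of EMT6-PTR tumors and a single, unreplicated metastasis of EMT6-PTR.

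EMT6 is a line of mouse mammary carcinoma cells, the only line behind all 7 libraries, implanted at 500000 cells in the mammary fat pads of Balb/c mice. EMT6-P tumors received isotype control antibody (IgG) and EMT6-PTR tumors (treatment-resistant, written PDR in the labels) received αPD-L1, each at 250 μg per mouse every 3 days from day 1 until the institutional endpoint. The labels give the EMT6-PTR tumors both another variant name and another antibody than the EMT6-P tumors, and any effects of these cannot be told apart. The metastasis came from an αPD-L1-treated animal, and its organ is not given in the sources used here. The labels do not say whether replicates were taken from separate animals, and the study describes its replicates as technical wherever it does not say otherwise. Each primary library is called a tumor here, and p-values measure only the spread between these samples, which may be technical. Total estimated counts were between 20430110 and 25213472 per library.

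PD-L1 is placed on tumor cells, macrophages and dendritic cells, is induced by interferons through factors such as IRF1, and dampens T cell receptor and CD28 signaling when it engages PD-1. CTLA-4 competes with CD28 for CD80 and CD86, and LAG-3, TIM-3 (Havcr2) and TIGIT are inhibitory receptors that accumulate on activated and chronically stimulated T cells. In bulk tumor RNA, fewer cells of a type and less RNA per cell cannot be told apart, so that every level below is one of the whole tissue.

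Cd274 lies on chromosome 19 at 29367455 to 29388095 (GRCm38, plus strand), and Pdcd1lg2 begins 22823 bases after its end on the same strand. An antisense gene, AC119228.1, overlaps Cd274 over 511 exon bases and was not found under that name among the counted genes. The strand setting of the counting is not given in the sources used here, so that reads of this antisense gene may have been counted for Cd274. Lgals9 lies on chromosome 11 at 78962974 to 78984946 (minus strand). The RefSeq table of promoters held a 250-base stretch upstream of the start for 8 of the 10 genes, and these were searched on both strands for the interferon-stimulated response element GAAANNGAAA (reverse TTTCNNTTTC) and the gamma-activated site TTCNNNGAA. The first motif occurred in 2.98% of all 32851 upstream stretches and in 1 of the 8, that of Lgals9, where it began 55 bases before the RefSeq start and 33 bases before the end of the gene given above, which is its start in GENCODE. The second occurred in 7.02% of all stretches and in 0 of the 8. The stretches of Cd274, the target of the antibody, and of Lgals9, the carrier of the match, are shown 5′ to 3′ on the gene's own strand, at chr19:29367188-29367437 and chr11:78984947-78985174 of RefSeq GRCm38.p6. Capitals mark the motif, and 22 bases of the Lgals9 stretch that GENCODE places inside the gene were left out.
Cd274: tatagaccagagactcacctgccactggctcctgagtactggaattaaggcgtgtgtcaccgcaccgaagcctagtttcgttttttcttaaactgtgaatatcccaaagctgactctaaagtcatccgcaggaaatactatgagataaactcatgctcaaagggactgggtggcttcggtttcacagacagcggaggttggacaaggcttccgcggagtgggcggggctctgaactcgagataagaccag
Lgals9: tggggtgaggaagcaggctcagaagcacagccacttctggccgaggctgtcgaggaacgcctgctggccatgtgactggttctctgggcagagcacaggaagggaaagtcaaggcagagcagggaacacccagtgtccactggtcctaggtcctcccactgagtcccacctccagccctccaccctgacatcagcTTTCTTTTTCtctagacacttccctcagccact
A match of letters is a description and not a measured binding site.

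No checkpoint gene passed the test of EMT6-PTR against EMT6-P tumors. Of the 10 genes, 9 passed the filter on low counts, and edgeR called 0 of them at an adjusted p under 0.05, beside 0% of all 15645 genes tested. At an unadjusted p under 0.05 it was also 0 of 9, where 11.4% of all genes tested passed, and DESeq2, which called 2.05% of the genes to which it gave an adjusted p, called 0 of the 7 checkpoint genes that had one. It gave none for Pdcd1 and Ctla4, whose unadjusted p in DESeq2 were 0.172 and 0.614. The log2 fold change of EMT6-PTR over EMT6-P was above 0 for 7 genes and below 0 for Ctla4 and Havcr2, with a median of 0.18. Over all genes tested, 52.3% were above 0 and the median was 0.03. The values below are CPM (counts per 1000000 counts of the library, after upper-quartile scaling), and replicates are given in the order 1, 2, 3.

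**Figure D1:**
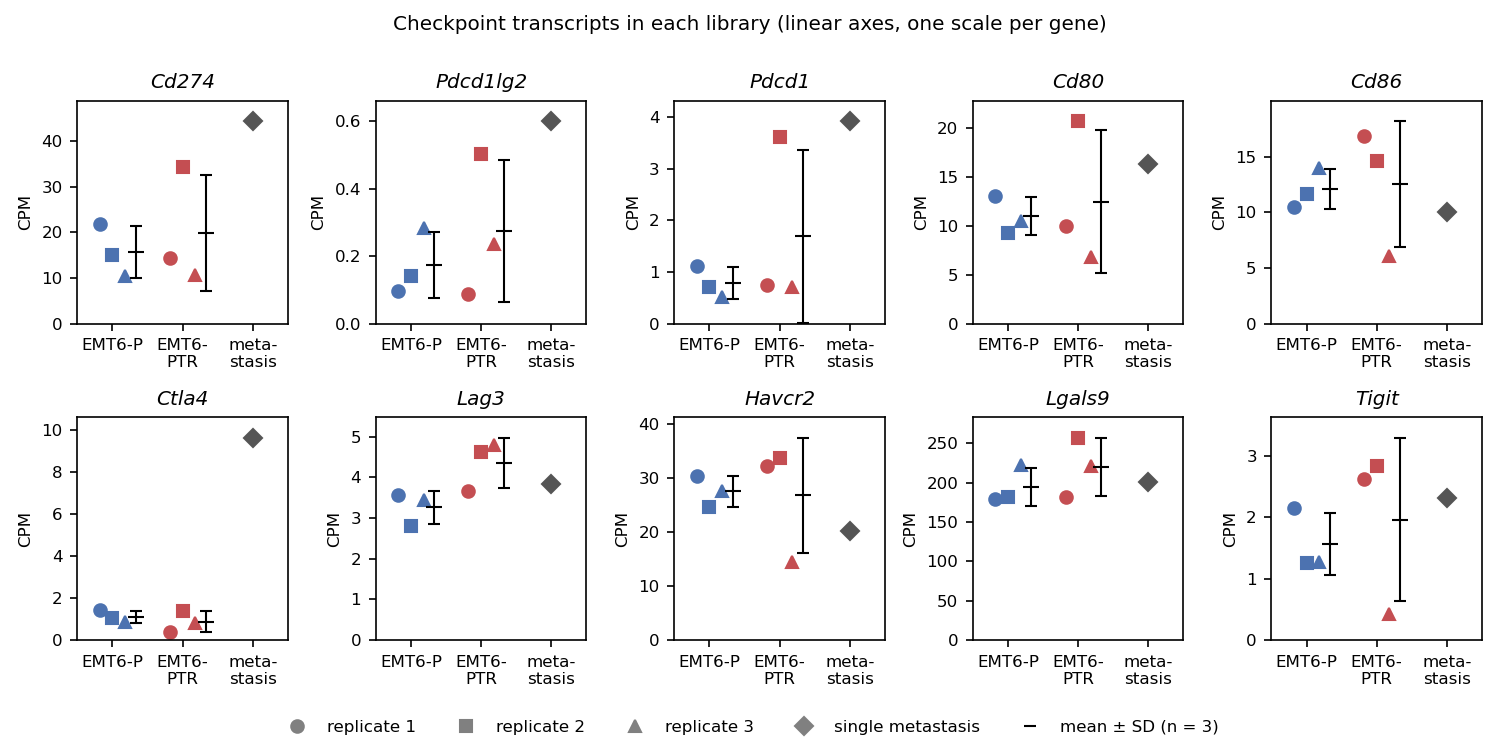
CPM of each checkpoint gene (vertical axis, linear, a scale of its own per gene) in the EMT6-P tumors (blue), the EMT6-PTR tumors (red) and the metastasis (grey diamond), with the mean ± SD of each group of 3 in black. EMT6-PTR replicate 2 stood highest among the 6 tumors for Cd274 (34.4 CPM) and Pdcd1 (3.62 CPM), and the metastasis stood far above all tumors for Ctla4 (9.63 CPM).

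The ligands of PD-1 were carried in their EMT6-PTR mean by a single tumor. Cd274 was at 21.8, 15.0 and 10.5 CPM in the EMT6-P tumors and at 14.4, 34.4 and 10.6 CPM in the EMT6-PTR tumors. Replicate 2 of EMT6-PTR was the highest of the 6 and the other EMT6-PTR tumors lay within the range of the EMT6-P tumors. The group means were 15.8 ± 5.68 and 19.8 ± 12.8 CPM (SD, n = 3 each), and the log2 fold change was 0.33 with a standard error of 0.49 (edgeR adjusted p = 0.792). Without EMT6-PTR replicate 2 the log2 fold change of Cd274 turned to -0.33. Pdcd1lg2, the lowest of the 10 genes, did not pass the filter, with 2, 3 and 6 counts in EMT6-P and 2, 9 and 6 counts in EMT6-PTR. The groups overlapped, and at such counts, of which several lie at or under the 3 counts that a count of 0 allows, no difference was detectable.

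Pdcd1, the receptor of both ligands, was at 1.12, 0.701 and 0.519 CPM in EMT6-P and at 0.742, 3.62 and 0.703 CPM in EMT6-PTR. As for Cd274, EMT6-PTR replicate 2 stood above the other 5 tumors, which lay together. The log2 fold change was 1.09 with a standard error of 0.75 (edgeR adjusted p = 0.571), the largest among the 9 genes tested. Without that replicate it was -0.11. Counts behind these values were low, 11 to 23 in the 5 other tumors and 65 in replicate 2.

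The B7 ligands CD80 and CD86 spread more widely over the EMT6-PTR than over the EMT6-P tumors. Cd80 was at 13.1, 9.30 and 10.5 CPM in EMT6-P and at 9.95, 20.7 and 6.80 CPM in EMT6-PTR, with a log2 fold change of 0.18 and a standard error of 0.42 (edgeR adjusted p = 0.872). EMT6-PTR held both the highest and the lowest of the 6 tumors, and without its replicate 2 the value turned to -0.39. Cd86 was at 10.5, 11.7 and 14.01 CPM in EMT6-P and at 16.8, 14.6 and 6.10 CPM in EMT6-PTR. EMT6-PTR replicates 1 and 2 lay above all EMT6-P tumors and replicate 3 below them, and the log2 fold change was 0.05 with a standard error of 0.38 (edgeR adjusted p = 0.962). Ctla4, the inhibitory receptor for both, was at 1.41, 1.03 and 0.849 CPM in EMT6-P and at 0.393, 1.39 and 0.821 CPM in EMT6-PTR. Its lowest value was in EMT6-PTR replicate 1, from 9 counts, and its log2 fold change was -0.35 with a standard error of 0.52 (edgeR adjusted p = 0.792). Without EMT6-PTR replicate 1 that log2 fold change was 0.00. A processed pseudogene, Rpl18-ps1, lies inside Ctla4 on the same strand and shares 0 exon bases with it.

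Lag3, an inhibitory receptor for MHC class II, was the only checkpoint gene whose groups did not overlap. It was at 3.56, 2.80 and 3.44 CPM in EMT6-P and at 3.67, 4.62 and 4.81 CPM in EMT6-PTR, 3.27 ± 0.407 and 4.36 ± 0.613 CPM (SD, n = 3 each). The lowest EMT6-PTR tumor exceeded the highest EMT6-P tumor by less than the SD within either group. The log2 fold change was 0.42 with a standard error of 0.26 (edgeR adjusted p = 0.543), and it ranged from 0.32 to 0.53 when each tumor was left out in turn. Complete separation was not rare in these data: all 3 EMT6-PTR tumors lay above all 3 EMT6-P tumors for 9.52% of all genes tested and below them for 11.8%, beside 1 and 0 of the 9 checkpoint genes.

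Havcr2, which encodes TIM-3 on T cells and on myeloid cells, was at 30.4, 24.6 and 27.5 CPM in EMT6-P and at 32.2, 33.6 and 14.5 CPM in EMT6-PTR. Replicates 1 and 2 of EMT6-PTR lay above all EMT6-P tumors and replicate 3 far below them, for a log2 fold change of -0.04 with a standard error of 0.32 (edgeR adjusted p = 0.964). Lgals9, the galectin reported as a ligand of TIM-3, was at 180, 182 and 222 CPM in EMT6-P and at 182, 256 and 222 CPM in EMT6-PTR. The groups overlapped, with a log2 fold change of 0.18 and the smallest standard error of the 9 genes, 0.18 (edgeR adjusted p = 0.688). The log2 fold change was 0.055 without EMT6-PTR replicate 2 and 0.29 without replicate 1. Tigit, the receptor for the nectin-like ligands Pvr and Nectin2, was at 2.14, 1.26 and 1.27 CPM in EMT6-P and at 2.62, 2.84 and 0.430 CPM in EMT6-PTR, with replicate 3 again the lowest tumor, at 11 counts. Its log2 fold change was 0.32 with a standard error of 0.69 (edgeR adjusted p = 0.861), and it turned to -0.033 without EMT6-PTR replicate 2 and rose to 0.80 without replicate 3.

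**Figure D2:**
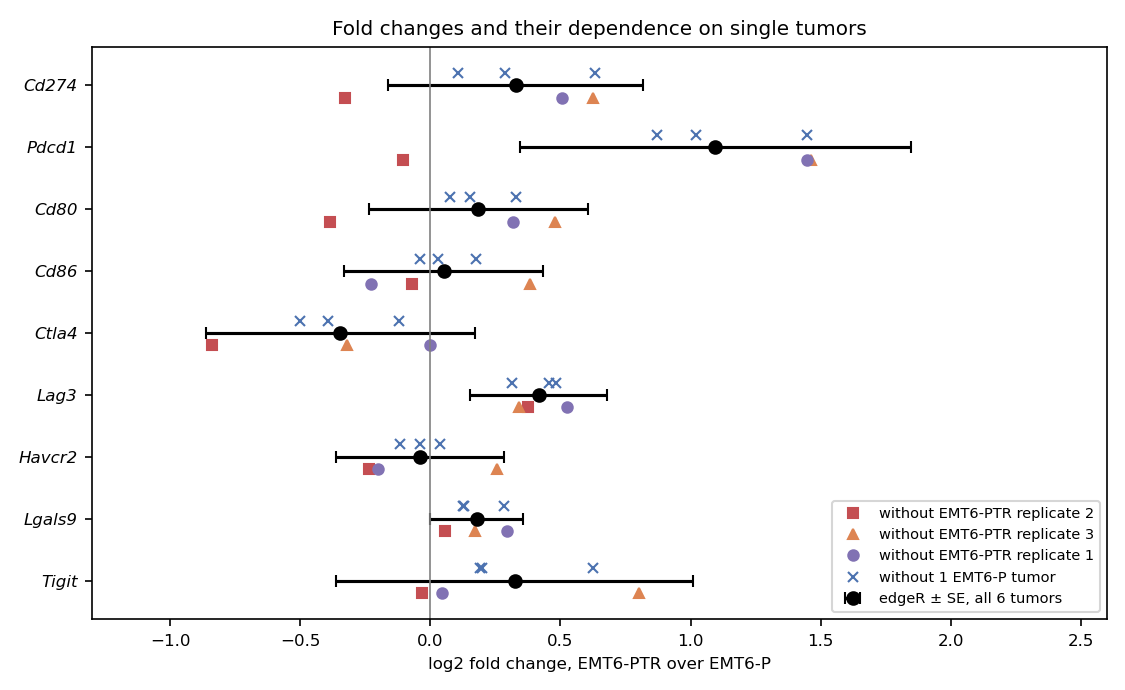
Log2 fold change of EMT6-PTR over EMT6-P (horizontal axis) for the 9 tested checkpoint genes, as black points with the standard error from edgeR. Colored symbols give the value without each EMT6-PTR tumor and blue crosses the value without each EMT6-P tumor, and the red squares (without EMT6-PTR replicate 2) cross to negative values for Cd274 (-0.33), Pdcd1 (-0.11), Cd80 (-0.39), Cd86 (-0.069) and Tigit (-0.033).

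Levels were compared between genes only as CPM per kilobase of exon. On this scale, Lgals9 was by far the most abundant, with group means of 91.0 in EMT6-P and 103 in EMT6-PTR. Havcr2 followed with 10.1 and 9.84, Cd274 with 4.35 and 5.47, Cd86 with 3.29 and 3.42, and Cd80 with 2.96 and 3.37. The lymphocyte receptors came next, Tigit with 1.70 and 2.14, Lag3 with 1.55 and 2.07, Ctla4 with 0.471 and 0.373, and Pdcd1 with 0.404 and 0.875. Pdcd1lg2 was last with 0.0885 and 0.140. Ctla4 and Pdcd1 exchanged places between the groups, within a spread over the EMT6-PTR tumors of 0.215 CPM per kilobase (SD, n = 3) for Ctla4 and 0.867 for Pdcd1, and these neighbours did not differ beyond it. The same holds for the neighbours Cd86 and Cd80 and for Tigit and Lag3. In EMT6-PTR it also holds for Cd274 and Cd86 and for Cd80 and Tigit, with an SD of 3.52 for Cd274 and 1.97 for Cd80.

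Within EMT6-PTR, replicate 2 departed from the shares over all genes, while replicates 1 and 3 lay near them. In replicate 2, 9 of the 10 checkpoint genes lay above all 3 EMT6-P tumors, with Ctla4 as the exception, where 33.8% of all genes tested did. This tumor was the highest of the 6 for 6 of the 9 tested genes, beside 16% of all genes. In replicate 3, 5 of the 10 lay below all EMT6-P tumors, where 42.7% of all genes did, and this tumor was the lowest of the 6 for Havcr2, Tigit, Cd80 and Cd86, 4 of 9 beside 34.5% of all genes. Replicate 1 had 4 genes above and 2 below all EMT6-P tumors, where 32.6% and 32.5% of all genes did. The median difference from the EMT6-P mean over the 10 genes, in log2 CPM, was -0.03, 0.68 and -0.43 in replicates 1, 2 and 3.

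Marker genes of other cell types differed between the same tumors. The summed level of 10 T cell markers, led by Cd4 (the gene with the most CPM in the sum) and with none at 0 in any library, was 8.19, 6.07 and 6.98 CPM in EMT6-P and 7.94, 23.7 and 6.17 CPM in EMT6-PTR. EMT6-PTR replicate 2 thus held 3.35 times the EMT6-P mean, and all 10 T cell markers were above all EMT6-P tumors there. Cd8a, a co-receptor of cytotoxic T cells, was at 1.02, 0.561 and 0.613 CPM in EMT6-P and at 1.83, 3.62 and 1.17 CPM in EMT6-PTR (log2 fold change 1.58, standard error 0.53, edgeR adjusted p = 0.427). Dendritic cell markers, led by Itgax, summed to 31.3, 39.1 and 43.6 CPM in EMT6-P and to 41.1, 83.0 and 17.7 CPM in EMT6-PTR, also highest in replicate 2 and lowest in replicate 3. Itgax made up 68.5 CPM of the sum in replicate 2 and 5.31 CPM in replicate 3, while Zbtb46 and Clec9a were highest of the 6 tumors in replicate 3, at 10.2 and 1.13 CPM. B cell markers, with 1 of 5 genes tested, summed to between 0.561 and 1.27 CPM in EMT6-P and to 1.00, 8.86 and 6.88 CPM in EMT6-PTR.

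The 10 macrophage and monocyte markers, led by Lyz2, summed to 2658, 2231 and 2652 CPM in EMT6-P and to 2936, 2118 and 1603 CPM in EMT6-PTR. In replicate 2 the list was split, with 2 genes, Adgre1 (78.0 CPM) and Cd68 (127 CPM), above all EMT6-P tumors and 3 below, Lyz2 (785 CPM) among them. Pan-leukocyte markers, led by Laptm5, summed to 522, 515 and 461 CPM in EMT6-P and to 569, 495 and 314 CPM in EMT6-PTR, and all 4 lay below all EMT6-P tumors in replicate 3. Regulatory T cell markers, led by Ikzf2, summed to 10.3, 14.6 and 10.7 CPM in EMT6-P and to 8.60, 11.9 and 5.98 CPM in EMT6-PTR, so that replicate 2 was not raised for them. NK cell markers, with 2 of 6 genes tested and 1 to 3 genes at 0 in each tumor, summed to 0.860 to 3.79 CPM.

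Replicate 3 of EMT6-PTR also differed in its non-immune markers. Carcinoma cell markers, led by Krt8, summed to 2657, 2515 and 2724 CPM in EMT6-P and to 2608, 2377 and 612 CPM in EMT6-PTR, and fibroblast markers, led by Col1a2, to 5730, 6144 and 7656 CPM in EMT6-P and to 6759, 9400 and 20930.5 CPM in EMT6-PTR. The labelled breast tumor tissue was thus matched by carcinoma markers in every primary tumor, at 0.232 times the EMT6-P mean in EMT6-PTR replicate 3. Skeletal muscle markers, led by Acta1, ranged from 9.02 to 584 CPM in EMT6-P and were 3323 CPM in EMT6-PTR replicate 1, 7.91 CPM in replicate 2 and 3.52 CPM in replicate 3. Endothelial markers, led by Pecam1, were at 100.4 to 121 CPM in EMT6-P and at 142, 126 and 106 CPM in EMT6-PTR, and adipocyte markers, led by Fabp4, at 9.76 to 19.999 CPM and at 30.2, 21.3 and 20.4 CPM. The single gene CT010467.1 took 13.8% of the counts of EMT6-PTR replicate 2, beside 0.442% to 1.35% in the other tumors. edgeR called 0 of the marker genes tested, and besides Cd8a those at an unadjusted p under 0.05 were Dcn (log2 fold change 4.67, standard error 1.69, edgeR adjusted p = 0.427), Col3a1 (2.15, standard error 0.81, edgeR adjusted p = 0.431) and the lung gene Ager (3.08, standard error 0.74, edgeR adjusted p = 0.421), of which Dcn and Col3a1 were highest in EMT6-PTR replicate 3 and Ager in replicate 2. The part of tissue composition or of that library's composition in the checkpoint levels was not tested.

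**Figure D3:**
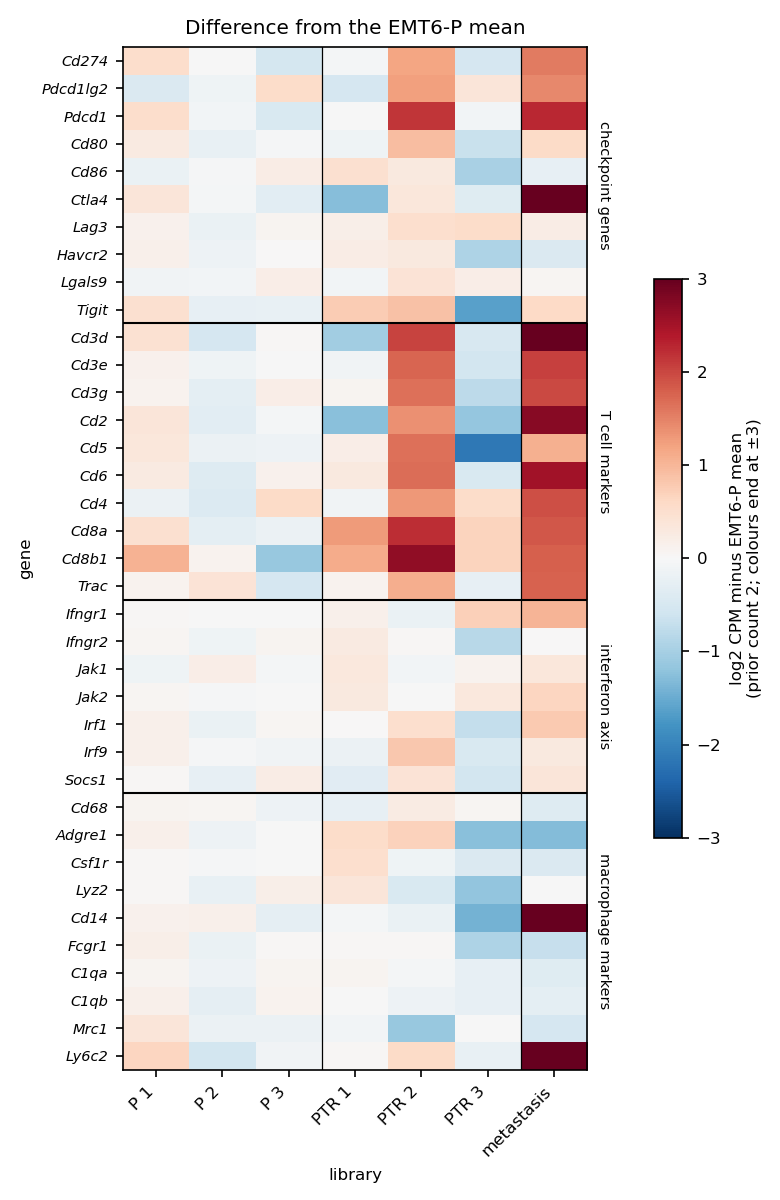
Difference of each library from the mean of the EMT6-P tumors in log2 CPM (prior count 2, colors end at ±3) for the checkpoint genes, T cell markers, genes of the interferon axis and macrophage markers. EMT6-PTR replicate 2 and the metastasis share red across Cd274, Pdcd1 and the T cell markers, while EMT6-PTR replicate 3 is blue for Cd80, Cd86, Havcr2 and Tigit.

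To set the receptors against the T cell content of the same tumor, each was divided by the summed counts of the T cell markers, a ratio that does not depend on library scaling. Pdcd1 stood at 137, 115 and 74.3 per 1000 T cell marker counts in EMT6-P and at 93.5, 153 and 114 in EMT6-PTR. On this scale too, replicate 2 of EMT6-PTR stood first among the 6, next to EMT6-P replicate 1, and the mean log2 ratios differed by 0.14 (exact two-sided permutation test, p = 0.7). Ctla4 stood at 173, 169 and 122 per 1000 T cell marker counts in EMT6-P and at 49.5, 58.7 and 133 in EMT6-PTR, lower in replicates 1 and 2 but not in replicate 3, with a difference of -1.05 in the log2 ratio (exact permutation p = 0.2). Havcr2 stood at 3714, 4046 and 3946 per 1000 T cell marker counts in EMT6-P and at 4058, 1418 and 2342 in EMT6-PTR. It thus exceeded the summed T cell markers in every tumor, and with TIM-3 also on myeloid cells its ratio is not a level per T cell. The differences for Lag3, Tigit and Havcr2 were -0.17, -0.61 and -0.71, with exact permutation p of 0.8, 0.5 and 0.4. Leaving out 1 tumor moved them widely, for Tigit to -0.12 without EMT6-PTR replicate 3 and -1.22 without replicate 1, and for Havcr2 to -0.34 without EMT6-PTR replicate 2 and -1.10 without replicate 1.

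The ligands, which myeloid cells also transcribe, were divided by the summed counts of the macrophage and monocyte markers. Cd274 stood at 8.20, 6.70 and 3.97 per 1000 macrophage marker counts in EMT6-P and at 4.92, 16.2 and 6.60 in EMT6-PTR, so that replicate 2 kept the highest value on this scale. The log2 ratios differed by 0.42 (exact permutation p = 0.7). For Pdcd1lg2, Cd80, Cd86, Lgals9 and Havcr2 the differences were 0.64, 0.26, 0.15, 0.39 and 0.09, with exact permutation p of 0.5, 0.8, 0.6, 0.4 and 0.9. That of Pdcd1lg2 was 0.073 without EMT6-PTR replicate 2 and 1.45 without replicate 1, and that of Lgals9 was 0.16 without EMT6-PTR replicate 3 and 0.74 without replicate 1. In all 11 ratios the groups overlapped, and adjusted over the 11 the p-values were 0.88 to 0.9. With 3 tumors against 3 the smallest p this test allows is 0.1.

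**Figure D4:**
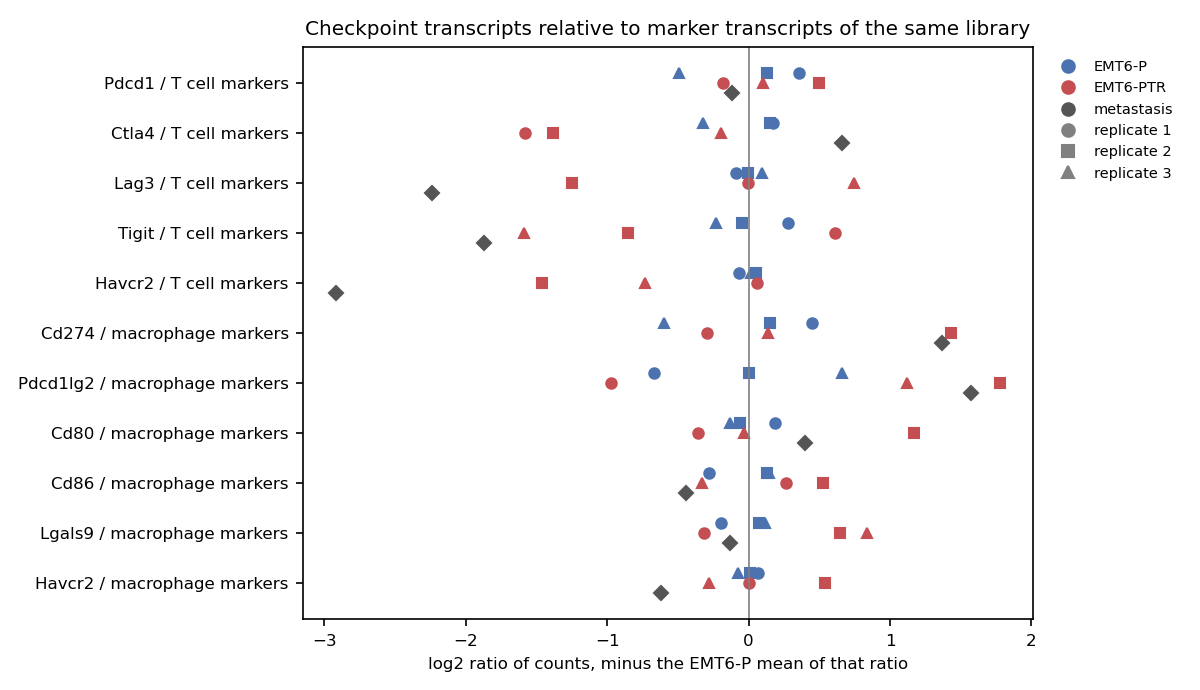
Log2 ratio of each checkpoint gene to the T cell or macrophage markers of the same library, minus the EMT6-P mean of that ratio (horizontal axis), with circles, squares and triangles for replicates 1, 2 and 3. The ranges of the red EMT6-PTR and the blue EMT6-P symbols overlap in each row, and the row of Ctla4, where 2 EMT6-PTR tumors lie below all EMT6-P tumors and the third among them, has the lowest group difference (-1.05).

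The interferon axis upstream of Cd274 varied between the same tumors without a called change. Ifng, which encodes the main inducer of PD-L1, had 1 to 8 counts per tumor and did not pass the filter. Irf1, a transcription factor that it induces, was at 105, 82.6 and 99.9 CPM in EMT6-P and at 96.0, 134 and 58.4 CPM in EMT6-PTR. It was highest in EMT6-PTR replicate 2 and lowest in replicate 3, with a log2 fold change of 0.00 (standard error 0.30, edgeR adjusted p = 0.996).

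Of 20 genes for the induction and stability of PD-L1, 19 were tested and edgeR called 0, with 12 above 0 and a median log2 fold change of 0.12. Over all genes tested, 52.3% were above 0 and the median was 0.03. At an unadjusted edgeR p under 0.05 there was 1 of 19, beside 11.4% of all genes tested. It was Rela, the NF-κB subunit, at 90.5, 86.9 and 83.7 CPM in EMT6-P and at 77.5, 65.3 and 55.5 CPM in EMT6-PTR (log2 fold change -0.40, standard error 0.15, edgeR adjusted p = 0.433). All 3 EMT6-PTR tumors lay below all EMT6-P tumors for Rela, and above them for Stat3, a transducer of cytokine signals (log2 fold change 0.36, edgeR adjusted p = 0.470). Cdk5, a kinase gene linked to PD-L1 expression, had overlapping groups and a log2 fold change of -0.24 (edgeR adjusted p = 0.558).

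Among 32 partners and other co-signaling genes, 21 were tested and edgeR called 0, with 10 above 0 and a median log2 fold change of -0.01. The share above 0 was 52.3% over all genes tested. Vtcn1, which encodes the inhibitory ligand B7-H4, was at 5.31, 6.91 and 5.14 CPM in EMT6-P and at 1.96, 1.17 and 1.33 CPM in EMT6-PTR. The highest EMT6-PTR tumor was thus below the lowest EMT6-P tumor, with a log2 fold change of -1.95 and a standard error of 0.32 (edgeR unadjusted p = 0.000676, adjusted p = 0.421). DESeq2 called Vtcn1 lower (adjusted p = 3.73e-05), while its adjusted p was between 0.125 and 0.865 over the other settings. Icosl, the ligand of ICOS, was at 13.1, 12.8 and 11.3 CPM in EMT6-P and at 16.8, 15.5 and 19.1 CPM in EMT6-PTR (log2 fold change 0.46, standard error 0.17, edgeR adjusted p = 0.427), with no overlap. Cd28, the activating counterpart of Ctla4, rested on 4 to 27 counts per tumor and was at 0.634, 0.234 and 0.189 CPM and at 0.829, 1.504 and 0.742 CPM (log2 fold change 1.52, standard error 0.59, edgeR adjusted p = 0.432). Ceacam1 had a log2 fold change of 0.91 (edgeR adjusted p = 0.474), and Nt5e, the adenosine-producing ectoenzyme, one of -0.20 (edgeR adjusted p = 0.680). DESeq2 called 2 genes of all the lists used here, among those with an adjusted p, Vtcn1 and the lung gene Ager.

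Of 15 genes of PD-1 signaling in T cells, 12 were tested and edgeR called 0, with 8 above 0 and a median log2 fold change of 0.28. The share above 0 was 52.3% over all genes tested. Nr4a1, an immediate early gene induced by receptor signaling in T cells and other cells, was at 6.09, 9.62 and 12.2 CPM in EMT6-P and at 16.4, 37.1 and 18.3 CPM in EMT6-PTR. The groups did not overlap, and the log2 fold change was 1.36 with a standard error of 0.40 (edgeR adjusted p = 0.421). Cd28, given above and also on this list, came next in p (log2 fold change 1.52). These were the 2 genes of 12 at an unadjusted edgeR p under 0.05, beside 11.4% of all genes tested. Nfatc1 followed with 0.29 (edgeR adjusted p = 0.488) and Prkcq with 1.93 and a standard error of 1.53 (edgeR adjusted p = 0.612). Prkcq was at 7.46 CPM in EMT6-PTR replicate 1, the tumor with the most skeletal muscle marker RNA, and at 0.724 and 0.0391 CPM in the other EMT6-PTR tumors. Ptpn11, which encodes the phosphatase SHP-2 recruited by PD-1, had a log2 fold change of -0.09 (edgeR adjusted p = 0.838).

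The metastasis held the highest PD-1 axis transcripts of the series. Cd274 was at 44.4 CPM, 2.24 times the mean of the EMT6-PTR tumors, Pdcd1 at 3.92 CPM, 2.32 times, and Pdcd1lg2 at 0.599 CPM from 15 counts, 2.19 times. For Cd274 and Pdcd1 the nearest tumor was EMT6-PTR replicate 2. Ctla4 was at 9.63 CPM from 241 counts, 11.1 times the EMT6-PTR mean, above each of the 6 tumors, whose counts were 9 to 29. The other 6 checkpoint genes were at 0.757 to 1.31 times the EMT6-PTR mean. In all, 3 of the 9 tested genes were at least 2-fold above the EMT6-PTR mean and 0 at least 2-fold below, beside 10.6% and 11.1% of all genes tested. Likewise, 3 of the 9 were at least 2-fold above the highest EMT6-P tumor, beside 11.9% of all genes tested.

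Several marker lists of the metastasis lay outside the range of the 6 tumors. T cell markers summed to 39.2 CPM, 3.11 times the EMT6-PTR mean, and B cell markers to 23.1 CPM. Regulatory T cell markers summed to 9.35 CPM, 1.06 times the EMT6-PTR mean, with Foxp3 at 3.92 CPM and Ccr8 at 0.679 CPM above all 6 tumors and Ikzf2 at 1.96 CPM below them. Pan-leukocyte markers summed to 668 CPM, above all 6 tumors. The sums of macrophage, dendritic cell, NK cell and fibroblast markers, at 2851, 37.7, 3.72 and 13215 CPM, lay within the range of the tumors, although single genes did not. Above all 6 tumors were the macrophage and monocyte markers Cd14 (717 CPM) and Ly6c2 (59.4 CPM), the dendritic cell markers Flt3 (2.28 CPM), Zbtb46 (13.3 CPM) and Clec9a (3.68 CPM) and the NK cell markers Gzma (1.36 CPM) and Klra8, the last with a single count (0.040 CPM). Below all 6 were the macrophage markers Cd68 (81.7 CPM), Adgre1 (19.4 CPM), C1qa (351 CPM) and C1qb (259 CPM), the dendritic cell marker Siglech (0.080 CPM) and the fibroblast marker Col1a1 (2212 CPM). These genes were named after their values were seen. Per 1000 T cell marker counts, Ctla4 stood at 245 in the metastasis, above the 49.5 to 173 of the tumors, and Pdcd1 at 99.8, within their range. Lag3, Tigit and Havcr2 stood at 97.8, 59.1 and 516, below all 6 tumors, where the value of Havcr2 is again not a level per T cell. Cd274 stood at 15.6 per 1000 macrophage marker counts, just under EMT6-PTR replicate 2. Neutrophil markers, led by S100a9, summed to 2980 CPM, beside 25.1 to 58.5 CPM in the tumors, endothelial markers to 849 CPM and lung epithelium markers, led by Scgb1a1, to 7298 CPM, where the tumors had 1.45 to 26.1 CPM. Carcinoma cell markers summed to 1216 CPM, 0.462 times the EMT6-P mean and above EMT6-PTR replicate 3. Of that list, Krt19 (172 CPM) and Epcam (52.2 CPM) were above all 6 tumors. Its other genes, Krt8 (743 CPM) among them, lay within the range of the tumors. The part of the surrounding tissue in these checkpoint levels was not tested, and with 1 library no spread can be given.

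The pattern of Cd274 over the 7 libraries was most like those of Gbp3, a guanylate-binding protein induced by interferon (Pearson r of log2 CPM = 0.986), Gm26751 (0.975), Emilin2, an extracellular matrix glycoprotein (0.975), Crym (0.973) and Acod1, the itaconate-producing enzyme of activated macrophages (0.965), among 14498 genes with a mean of at least 1 CPM. Pdcd1 was next in that order with 0.965. Gbp3 was at 203, 184 and 149 CPM in EMT6-P, at 174, 243 and 160 CPM in EMT6-PTR and at 249 CPM in the metastasis, so that its spread was far smaller than that of Cd274 although both genes ranked the 7 libraries in the same order. Most like Pdcd1 were Gm12250 (0.980), Rnf31, a subunit of the linear ubiquitin ligase (0.971), Gm43302 (0.966), Cd274 (0.965) and Fam169b (0.965). Of the checkpoint genes, Cd80 came closest to Cd274 after Pdcd1, with 0.883, followed by Ctla4 with 0.793 and Tigit with 0.683. Lag3, Havcr2, Cd86 and Lgals9 had 0.190, 0.218, 0.138 and 0.148. All these values share the same 7 libraries, of which EMT6-PTR replicate 2 and the metastasis are high, and describe likeness only.

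**Figure D5:**
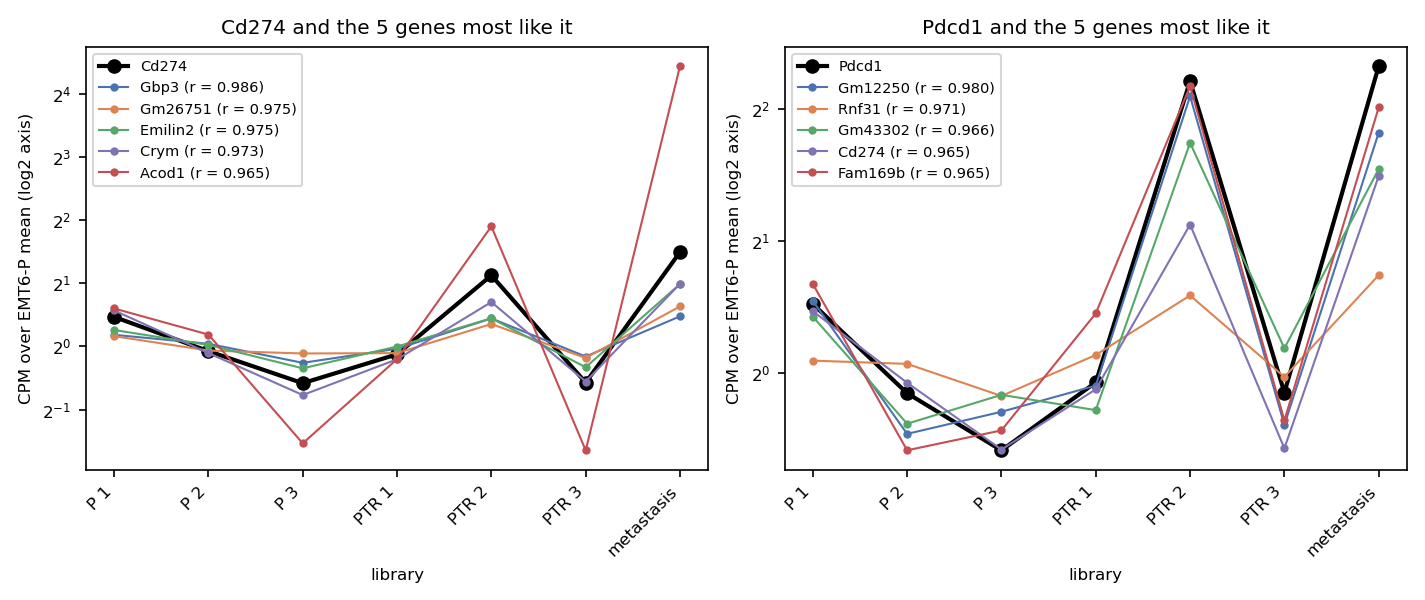
CPM relative to the EMT6-P mean (vertical axis, log2) in each library for Cd274 (left, black) and Pdcd1 (right, black) with the 5 genes whose pattern was most like each, and Pearson r over the 7 libraries in the key. Each line peaks in EMT6-PTR replicate 2 and in the metastasis, and Acod1 spans a wider range than Cd274.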

How the data were processed

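The authors prepared stranded polyadenylated libraries, checked the reads with FastQC 0.11.5, aligned them with STAR 2.6.0a to the mouse genome GRCm38 and estimated counts per gene with RSEM 1.3.1. The deposited values are these estimated counts, neither filtered nor scaled, in 1 column for each of the 7 libraries, and 13.5% to 15.6% of the values per library were fractional. RSEM divides reads shared by similar genes by estimation. A count of 0 allows up to 3 counts at this depth (0.119 to 0.147 CPM), which covers counting error only. Symbols and positions came from GENCODE M21, which named 53274 of 53465 identifiers, and all 159 list entries were found.

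Counts were rounded. The 3 EMT6-PTR were compared with the 3 EMT6-P tumors in edgeR 4.0.16 (filterByExpr, upper-quartile factors, glmQLFit and glmQLFTest, Benjamini-Hochberg adjustment over all genes tested, threshold 0.05) in R 4.3.3. A standard error is the log2 fold change divided by the square root of F. CPM values use the upper-quartile library sizes. Ratios to markers added 0.5 to both counts and were compared by exact permutation over the 20 assignments of the tumors. The metastasis is described without a test, with 2-fold as its limit. Likeness is Pearson's r of log2 CPM (prior count 2). Alternatives were TMM scaling, DESeq2 1.42.0, limma-voom (limma 3.58.1), no filter, the metastasis as a further group, the replicate number as a block, each tumor left out, 2 added to counts, and a single marker as denominator (Cd3e or Csf1r). Likeness over the 6 primary tumors was added after seeing the data.

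The members and lists were chosen with earlier results of these data known. Named genes are the 10 checkpoint genes, Ifng and Irf1, from each list the 4 genes lowest in p and the gene highest in mean CPM, and the 5 genes most like Cd274 and Pdcd1. Some genes that this rule names are not reported here. On simulated counts for this comparison (15925 genes, 200 of them changed, dispersion 0.1), edgeR recovered 95.5% with 6 false calls, DESeq2 97% with 23 and limma-voom 94% with 6. The planted changes were larger than any checkpoint fold change here, in genes whose mean counts exceeded those of Pdcd1, Ctla4 and Tigit. The recovery rates therefore say nothing about smaller changes or about genes at such counts. In the real counts edgeR's common dispersion was 0.14. Tables, permutation tests and plots were made in Python 3.11.15 with pandas 2.3.3, scipy 1.17.1 and matplotlib 3.10.9.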

Additional observations from a re-analysis of the deposited data

Results flagged for a closer look

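In 4 checkpoint genes the single metastasis, which enters no test, was at least 2-fold above the highest EMT6-P tumor. These were Cd274 at 44.4 CPM, Pdcd1 at 3.92 CPM, Pdcd1lg2 at 0.599 CPM and Ctla4 at 9.63 CPM, where the highest EMT6-P tumors had 21.8, 1.12, 0.283 and 1.41 CPM. EMT6-PTR replicate 2 came nearer, with 34.4 CPM of Cd274, 3.62 CPM of Pdcd1 and 0.501 CPM of Pdcd1lg2, while Ctla4 was at most 1.41 CPM in the tumors. The metastasis was as far above EMT6-P for 11.9% of all genes tested. Pdcd1lg2 rests on 15 counts and the other 3 on 98 to 1110 counts. With 1 library, the spread of these values is unknown, and the part of the marker genes of T cells, neutrophils and lung that were also high in this library was not tested.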

How the results depend on the processing

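The calls were 0 higher and 0 lower genes in edgeR and under TMM scaling, limma-voom, no filter, the metastasis as a further group and each left-out tumor, while DESeq2 called 138 higher and 143 lower, none of them among the 7 checkpoint genes to which it gave an adjusted p (none for Pdcd1 and Ctla4). The cause of this difference between tools was not tested. Of the values recomputed under these alternatives, 194 kept their direction and side of the threshold or their count and 24 turned direction, none of which had passed its test. Under limma-voom the log2 fold changes of Tigit, Cd80 and Cd86 turned to -0.10, -0.013 and -0.10. Those of Cd274 and Pdcd1 fell to 0.15 and 0.65, and those of Havcr2, Ctla4, Lag3 and Lgals9 were -0.16, -0.50, 0.41 and 0.17. With a single marker as denominator, the ratio difference of Lag3 turned to 0.055, of Cd86 to -0.048 and of Havcr2 over macrophage markers to -0.11. Leaving out each tumor in turn, log2 fold changes ranged from -0.33 to 0.63 for Cd274, -0.11 to 1.46 for Pdcd1, -0.84 to 0.0003 for Ctla4, -0.23 to 0.26 for Havcr2, -0.033 to 0.80 for Tigit, -0.39 to 0.48 for Cd80 and -0.23 to 0.38 for Cd86, and from 0.055 to 0.29 for Lgals9, which kept its direction. Ratio differences ranged from -0.10 to 0.32 for Pdcd1 and -0.62 to 0.37 for Lag3 over T cell markers, and from -0.078 to 0.78 for Cd274, -0.19 to 0.57 for Cd80, -0.032 to 0.40 for Cd86 and -0.14 to 0.27 for Havcr2 over macrophage markers. Those that kept their direction ranged from -1.48 to -0.79 for Ctla4, -1.22 to -0.12 for Tigit and -1.10 to -0.34 for Havcr2 over T cell markers, and from 0.073 to 1.45 for Pdcd1lg2 and 0.16 to 0.74 for Lgals9 over macrophage markers. Where a group kept 2 tumors, the test pooled the spread over both groups, and a ratio has then fewer assignments to permute.

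Same-numbered tumors of the 2 groups deviated from their group means with correlations of 0.259, 0.253 and 0.038, and differently numbered ones with -0.286 to 0.098. The labels do not say that the replicate numbers pair animals, and for that reason they were not taken as pairs in the main fit. With the replicate number as a block, edgeR called 0 genes higher and 0 lower, and the log2 fold change of Cd86 turned to -0.050, while no call changed. Under the block those of Cd274, Pdcd1, Tigit and Cd80 fell to 0.20, 0.75, 0.038 and 0.033. Those of Havcr2, Ctla4, Lag3 and Lgals9 were -0.13, -0.44, 0.41 and 0.17. The depth limits Pdcd1lg2, Ifng, Pdcd1, Ctla4 and Tigit, whose values rest on 1 to 65 counts per tumor. It also limits other genes with low counts, such as Cd28 with 4 to 27.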

Other observations

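Over the 6 primary tumors alone, without the metastasis, the genes most like Cd274 were Usp18 (Pearson r = 0.997), Rps6kc1 (0.992), Gbp3 (0.988), Sgms2 (0.977) and Emilin2 (0.976), and Gbp3 and Emilin2 were among the 5 most like it over all 7 libraries too. Usp18, an interferon-induced protease that removes ISG15, was at 27.6, 22.0 and 17.0 CPM in EMT6-P, at 21.6, 41.8 and 17.5 CPM in EMT6-PTR and at 12.7 CPM in the metastasis, where Cd274 was at its highest. Without the metastasis, the r of Cd274 with Havcr2, Cd86 and Lgals9 rose from 0.218, 0.138 and 0.148 to 0.625, 0.353 and 0.254. With Lag3, Ctla4 and Tigit it was 0.218, 0.585 and 0.718. The genes most like Pdcd1 over the tumors were Cmpk2 (0.998), Dtx3l (0.984), Nos2 (0.983), Oas2 (0.983) and Gm14325 (0.980), and none of these was among the 5 over all libraries. Nos2, the inducible nitric oxide synthase, was at 34.7, 23.4 and 11.6 CPM in EMT6-P and at 29.4, 182 and 22.2 CPM in EMT6-PTR, highest in replicate 2. The gene lies 2719 bases from Lgals9 on the opposite strand of chromosome 11. These likeness values were computed after seeing the data, rest on 6 points of which EMT6-PTR replicate 2 is the highest, and carry no test.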
